A study of Mus musculus with 48 samples.

Results

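The 6 genes *Th*, *Ddc*, *Slc18a2*, *Slc6a3*, *Maoa* and *Maob* of monoamine synthesis, storage, uptake and breakdown were followed through RNA-sequencing libraries of the mouse amygdala. They were chosen by gene symbol, and with earlier results of these data known, among them that 1 library carried genes of dopamine neurons. All 6 members were found among the 52636 genes of the deposited expression table. In the order given, their identifiers are ENSMUSG00000000214, ENSMUSG00000020182, ENSMUSG00000025094, ENSMUSG00000021609, ENSMUSG00000025037 and ENSMUSG00000040147. The levels behind that choice are given as a description with no test, and the differences that this library moved most are also given without it.

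The study asked whether reduced expression of *Brd1*, which encodes a chromatin-associated bromodomain protein, alters gene expression in brain and how antidepressants act on such changes. Punches of the right amygdala came from 48 female mice aged 8 to 11 weeks, per the series' design text, in 6 groups of 8. WT mice and heterozygous *Brd1*+/- mice, which carry a deletion on 1 allele in all tissues, received saline as vehicle or an antidepressant. The tricyclic imipramine (IMN) was dosed at 10 mg/kg, and fluoxetine (FLX), which blocks serotonin reuptake, at 5 mg/kg. All mice, controls included, had been injected on consecutive days, per the study's methods. They went through the tail suspension test on the first day. Open field and forced swim tests followed on the second day, shortly before tissue was taken. Each library is 1 mouse, named here by its group and replicate number.

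Dopamine is made in neurons in a pair of steps. Tyrosine hydroxylase, the product of *Th*, turns tyrosine into L-DOPA and sets the pace of synthesis, and aromatic L-amino acid decarboxylase, from *Ddc*, turns L-DOPA into dopamine and also completes serotonin synthesis. The vesicular monoamine transporter VMAT2, from *Slc18a2*, loads every monoamine into vesicles, and the dopamine transporter, from *Slc6a3*, takes dopamine back up and marks dopamine neurons most narrowly. Monoamine oxidases A and B, from *Maoa* and *Maob*, break the amines down, the second mainly in glia and in serotonin and histamine neurons. The amygdala receives dopamine, serotonin and noradrenaline fibres, but the cell bodies, where most of the mRNA lies, sit in midbrain and brainstem, while the hypothalamus next to it holds its own *Th* neurons.

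On GRCm38, in the GENCODE M21 annotation, all 6 are protein-coding. *Th* spans bases 142892752 to 142931128 of chromosome 7 on the minus strand, with up to 13 exons in 1 transcript. *Ddc* spans 11814101 to 11898144 of chromosome 11, minus strand, *Slc18a2* 59260896 to 59296012 of chromosome 19, plus strand, and *Slc6a3* 73536747 to 73578672 of chromosome 13, plus strand. *Maoa* (16619698 to 16687818, plus strand) and *Maob* (16709282 to 16817366, minus strand) are neighbours on chromosome X. No 50-base word, the length of the reads, was shared by the transcripts of any pair of members. *Maoa* shared 3.98% of its words with transcripts of other genes and *Ddc* 0.563%, and *Th*, *Slc6a3* and *Maob* shared none. *Slc18a2* shared 111 exonic bases with an antisense gene, *Gm29261*, and since no strand setting is given in the sources used here, reads of the pair could not be told apart.

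The 250 bases before the RefSeq start are shown for the 4 genes of dopamine synthesis, storage and uptake, because these 4 were high together in 1 library. They are from GRCm38.p6 and are written 5′ to 3′ on each gene's strand, from chr7:142899996-142900245 (minus), chr11:11898145-11898394 (minus), chr19:59260628-59260877 (plus) and chr13:73536497-73536746 (plus). Capitals mark the cAMP response element TGACGTCA and the site AAAGGTCA (NBRE) bound by receptors of the Nr4a family, read on either strand.
Th: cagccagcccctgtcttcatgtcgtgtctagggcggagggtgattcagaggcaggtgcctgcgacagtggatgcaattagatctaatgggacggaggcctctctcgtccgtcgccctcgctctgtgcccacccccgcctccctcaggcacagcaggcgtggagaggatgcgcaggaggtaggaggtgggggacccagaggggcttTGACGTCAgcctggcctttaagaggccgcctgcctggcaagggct
Ddc: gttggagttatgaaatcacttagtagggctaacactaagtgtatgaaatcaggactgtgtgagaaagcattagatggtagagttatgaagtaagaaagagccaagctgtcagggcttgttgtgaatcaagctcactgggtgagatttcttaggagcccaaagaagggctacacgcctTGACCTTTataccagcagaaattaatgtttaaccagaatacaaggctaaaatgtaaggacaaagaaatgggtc
Slc18a2: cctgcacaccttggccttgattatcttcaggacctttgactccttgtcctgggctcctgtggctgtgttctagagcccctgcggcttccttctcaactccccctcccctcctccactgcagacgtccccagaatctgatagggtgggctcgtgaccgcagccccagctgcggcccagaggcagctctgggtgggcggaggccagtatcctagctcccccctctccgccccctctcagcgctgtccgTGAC
Slc6a3: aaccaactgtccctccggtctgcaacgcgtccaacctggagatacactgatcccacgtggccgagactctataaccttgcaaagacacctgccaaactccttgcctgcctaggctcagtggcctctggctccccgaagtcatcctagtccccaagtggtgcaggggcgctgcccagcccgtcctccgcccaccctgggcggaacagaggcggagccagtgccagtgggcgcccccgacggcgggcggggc

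Motifs were searched on both strands in windows of 300 bases, 250 before the start and 50 after. *Th* held the cAMP response element 45 bases before its start, and *Slc18a2* held it from 4 bases before the start onward, so that its first letters alone appear above. *Ddc* held the NBRE in the window shown, on the strand opposite to the gene. It held neither motif in its other RefSeq window, whose bases before the start, chr11:11890409-11890658, are not shown. Which *Ddc* start was in use in these libraries was not tested. The *Slc6a3* window and that of *Maoa* held neither, and none of the windows held TAATCC, the core site of bicoid-type homeodomain factors such as Pitx3. Of all 32851 RefSeq windows, 1.79% held the cAMP response element, 1.51% the NBRE and 7.06% TAATCC.

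Levels are given as TPM, a share of all transcripts in a library per length of gene, which permits comparison between genes but keeps no sequencing depth. The study's methods give a minimum of reads over all libraries but the table keeps no number for each, so no counting interval or detection limit is given. Between 23420 and 27252 genes were above 0 in a library, and *Brd1* itself had a mean of 35.6 ± 5.09 TPM in WT vehicle mice and 26.0 ± 2.90 in *Brd1*+/- vehicle mice (SD, n = 8). Its log2 difference between genotypes was -0.45 under vehicle (limma, adjusted *p* = 0.0512), -0.68 under IMN (0.102) and -0.49 under FLX (0.0362). In alternative fits these were called in 3 of 11, 2 of 9 and 6 of 10, with adjusted *p* of 0.0076 to 0.164, 0.0011 to 0.375 and 0.0331 to 0.0704. Genes in wide use were also listed at 0 in many libraries, for instance *Vezf1* in 35 and *Ggcx* in 25 of 48, so a 0 is given here as listed. Of 10 amygdala genes, 8 were above 0 in all 48 libraries, *Crh* in 47 and *Tac2* in 45, with sums of 680 to 2213 TPM. Libraries also differed widely in genes of neighbouring tissue. The summed level of 6 genes of striatal projection neurons ran from 101 to 7290 TPM, of 8 hypothalamus genes from 6.55 to 10478 TPM and of 5 choroid plexus genes from 6.26 to 29373 TPM. In bulk tissue, fewer cells of a type and less RNA per cell cannot be told apart.

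The members fell into a high and a low set. Across the 48 libraries the median level was 26.3 TPM for *Ddc*, 23.1 for *Maob* and 21.8 for *Maoa*, against 5.72 for *Th*, 3.74 for *Slc18a2* and 0.199 for *Slc6a3*. *Maoa* was the steadiest, with a coefficient of variation of 26.98% and a highest level 2.86-fold above its lowest. *Maob* varied by 39.1%, *Ddc* by 87.2%, *Slc18a2* by 130%, *Th* by 149% and *Slc6a3* by 630%, all with the dopamine neuron library, described next, included. *Ddc* exceeded *Th* in 42 of 48 libraries. *Th* was listed at 0 in 3 libraries, 1 each of *Brd1*+/- IMN, WT FLX and *Brd1*+/- FLX mice, and *Slc6a3* in 9, while the other 4 members were above 0 throughout. *Slc6a3* stayed under 1 TPM in 45 of the 48.

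**Figure D1:**
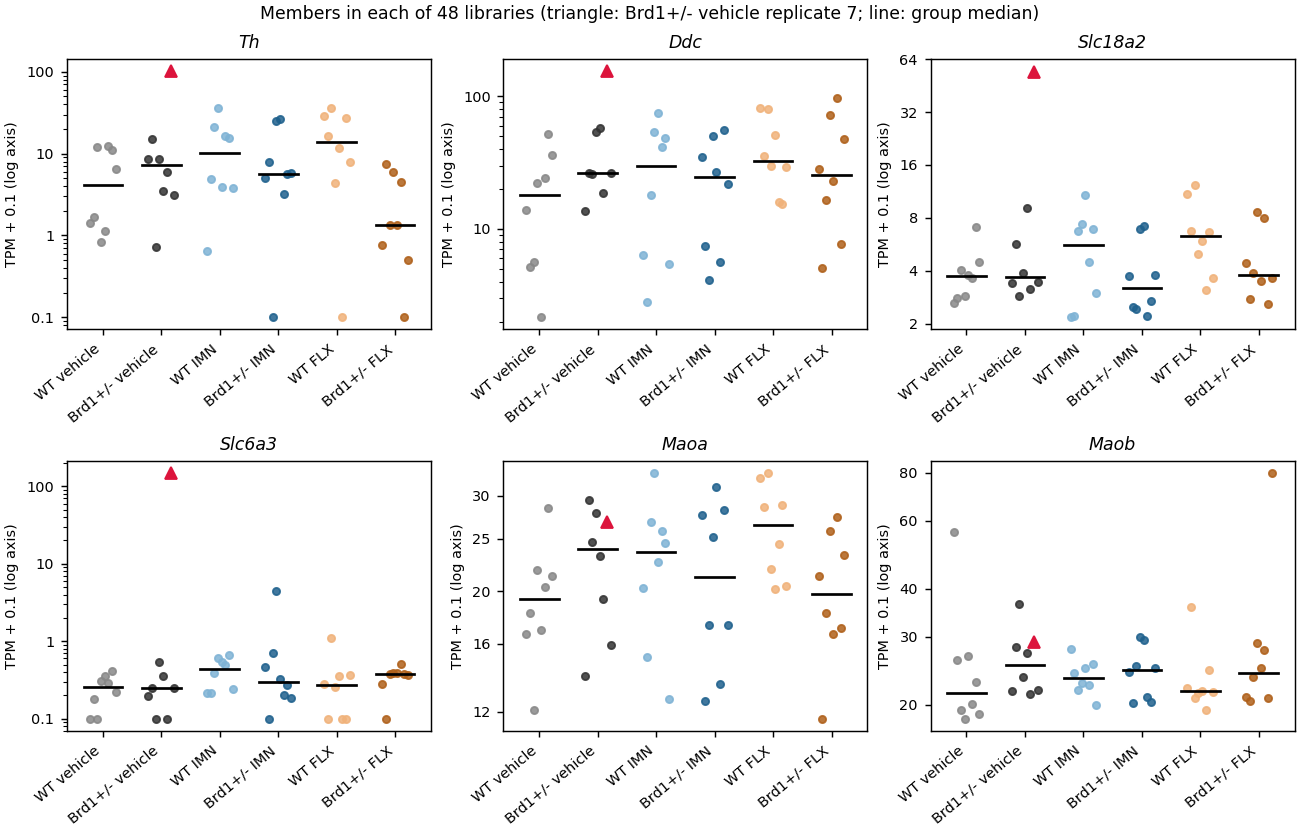
Level of each member in all 48 libraries, as TPM + 0.1 on a log axis, by group (x axis). Each point is 1 mouse, the line is the group median and the triangle is *Brd1*+/- vehicle replicate 7, which was highest of all in *Th* (101 TPM), *Ddc* (153), *Slc18a2* (53.9) and *Slc6a3* (149) and stood inside the range of the others in *Maoa* and *Maob*.

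One library stood apart in the dopamine genes. It was *Brd1*+/- vehicle replicate 7, found as the library with the highest summed log2 level of *Th*, *Slc6a3*, *Slc18a2* and *Ddc* after each gene was centred on its median. That sum was 19.44, and the next, WT FLX replicate 3, reached 7.80. The dopamine transporter *Slc6a3* measured 149 TPM there, against a highest value of 4.30 TPM in the other 47 libraries, in *Brd1*+/- IMN replicate 4. *Th* measured 101 TPM, against at most 35.9 elsewhere. VMAT2, *Slc18a2*, measured 53.9 TPM, against at most 12.3, and the decarboxylase *Ddc* 153 TPM, against at most 96.2. Relative to the median of the other 47, these levels were 768-fold for *Slc6a3*, 18.0-fold for *Th*, 14.6-fold for *Slc18a2* and 5.87-fold for *Ddc*. The oxidases did not share this: *Maoa* at 26.8 TPM ranked 13 of 48 and *Maob* at 29.0 TPM ranked 7.

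Of 14 listed dopamine neuron genes, 10 were also at their highest of 48 libraries there. Over all 13699 protein-coding genes with at least 1 TPM in this library, 3.94% were at their highest of 48. Among the transcription factors that define midbrain dopamine neurons, *Pitx3* measured 4.60 TPM against at most 0.356 elsewhere, *En1* 7.58 against 1.26, *Foxa1* 7.88 against 1.13 and *Lmx1b* 8.99 against 1.75. *Chrna6*, a nicotinic receptor subunit of dopamine terminals and cell bodies, measured 25.3 TPM against at most 2.22, and *Ret*, the receptor for GDNF-family factors, 59.9 against 21.3. *Aldh1a1*, an aldehyde dehydrogenase of ventral-tier nigral neurons, measured 285 TPM against at most 191, and *En2*, *Foxa2* and *Chrnb3* completed the 10. The other 4 were not highest: *Lmx1a* ranked 3, *Sncg* 4, *Slc10a4* 6 and *Nr4a2* 16, the last also an immediate-early gene, which reached 120 TPM in WT vehicle replicate 2.

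Genes of other amine neurons were low in this library, as they were in most of the others. *Dbh*, *Pnmt*, *Slc6a2* and *Phox2a* of noradrenaline and adrenaline neurons were listed at 0, as were *Slc6a4* and *Fev* of serotonin neurons and *Tph1*, while *Tph2* measured 0.208 TPM and *Hdc*, the histamine-forming enzyme, 1.14 TPM. The medians of *Tph2* and *Hdc* in the other 47 libraries were 0.185 and 0.858 TPM. Across all 48 libraries none of *Dbh*, *Slc6a2*, *Phox2a*, *Slc6a4* and *Fev* exceeded 0.359 TPM.

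**Figure D2:**
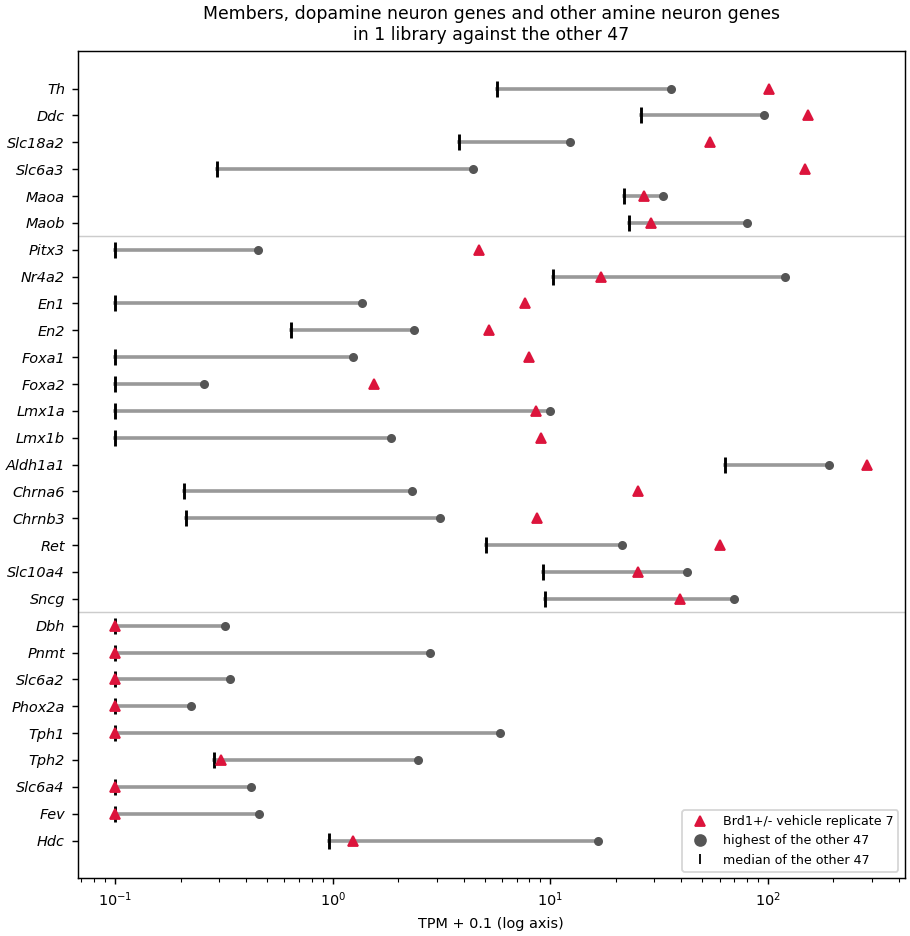
Level of the 6 members, 14 dopamine neuron genes and 9 other amine neuron genes (top to bottom, split by lines) in *Brd1*+/- vehicle replicate 7 (triangle), beside the median (tick) and highest value (dot) of the other 47 libraries, as TPM + 0.1 on a log axis. The triangle lies right of the dot for 4 members and 10 dopamine neuron genes, and at 0.1, a listed 0, for 7 of the other amine neuron genes.

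Many genes of oligodendrocytes and some of astrocytes were high in the same library, and amygdala genes were not. Of 6 oligodendrocyte genes, 4 were at their highest of 48, among them *Mag* at 791 TPM, as were 3 of 6 astrocyte genes, among them *Gfap* at 685 TPM. The astrocyte transporters *Slc1a2* and *Slc1a3* ranked 26 and 39 of 48, and none of 4 microglia genes was among its 5 highest. None of 10 amygdala genes was among its 5 highest, and *Wfs1*, an amygdala and cortex gene, was at its lowest of 48 with 34.6 TPM. The summed amygdala level of 874 TPM was the lowest of the 8 *Brd1*+/- vehicle libraries. Hypothalamus genes were also present, at a sum of 225 TPM, rank 10 of 48. *Pmch* measured 74.9 TPM, *Avp* 75.2 and *Oxt* 35.5, while *Hcrt* was listed at 0. Of the 8 hypothalamus genes, 0 were at their highest of 48 and 1 was among its 5 highest. By the largest log2 ratio to the median of the other libraries, the leading 12 protein-coding genes included *Gm49369*, *Prl*, *Slc6a3*, *Kctd12*, *Gh*, *Oxt*, *Myadm*, *Ggcx*, *Vezf1*, *C330021F23Rik* and *Gm28051*. Of the 12, *Slc6a3* was the only member. The pituitary hormones *Prl* (59.3 TPM) and *Gh* (35.6 TPM) were higher still in WT FLX replicate 6. Apart from *Slc6a3*, each had a median listed at 0 in the other 47 libraries, *Gm49369* being listed at 0 in all of them, so those ratios depend on the 0.1 added to each value.

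No member was called in any comparison between groups. In limma fits of log2(TPM + 0.1) over all genes, with adjusted *p* (Benjamini-Hochberg) under 0.05 as the threshold, 0 of 6 members passed in each of 9 comparisons, and 11 of the 54 values had an unadjusted *p* under 0.05. Of all genes tested, 3.58% to 16.8% had such a *p*, the most in the FLX comparisons of WT mice and of the interaction. All 6 members passed the filter on low values in all 9. The lowest adjusted *p* of a member was 0.173. The groups overlapped in all 42 combinations of a member and a pair of groups. Overlap was not counted over all genes, so this is no trait of the members. The 7 pairwise and 2 interaction comparisons share vehicle groups and are not independent. All vehicle libraries had lower sample codes than all drug libraries. A difference between drug and vehicle therefore cannot be told apart from that split. Among the drug libraries, the highest codes all belonged to WT mice, given IMN or FLX. Differences between genotypes under IMN or FLX, and the interactions, are thus partly tied to sample code.

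**Figure D3:**
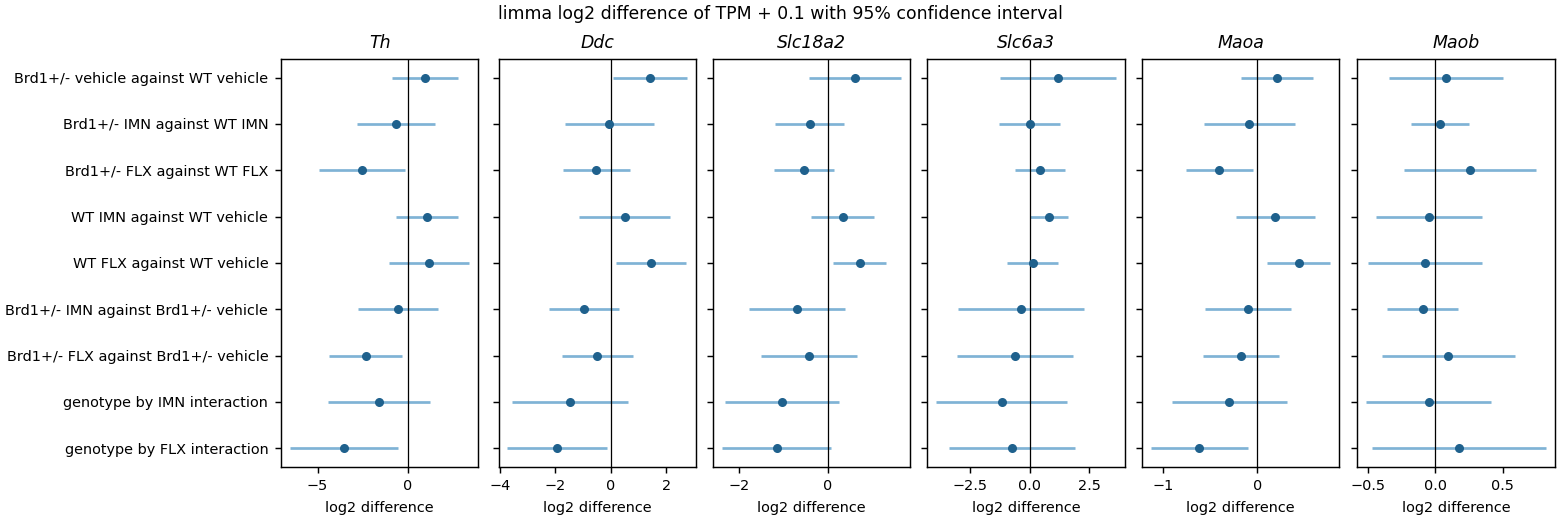
limma log2 difference of each member (panels, each with its own x axis) in the 9 comparisons (rows), with 95% confidence intervals. The vertical line is 0. The widest intervals belong to *Th* and *Slc6a3*, and no adjusted *p* was under 0.173.

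Between the genotypes under vehicle, all 6 log2 differences of the members were above 0 in *Brd1*+/- mice and none passed the test, with 1 at an unadjusted *p* under 0.05. Of all genes tested 0.708% were called, and 8.52% had such an unadjusted *p*. *Th* ran from 0.737 to 12.2 TPM (median 4.01) in WT mice and from 0.631 to 101 (median 7.19) in *Brd1*+/- mice. The log2 difference was 0.98 ± 0.86 (SE; limma, adjusted *p* = 0.846), and 0.43 without replicate 7. *Slc6a3* ran from 0 to 0.316 TPM (median 0.156) in WT and from 0 to 149 (median 0.151) in *Brd1*+/- mice. Its medians were thus nearly equal, and its log2 difference of 1.18 ± 1.15 (adjusted *p* = 0.861) went to -0.00083 without replicate 7. *Slc18a2* ran from 2.52 to 6.97 TPM in WT and from 2.76 to 53.9 in *Brd1*+/- mice, with medians of 3.61 and 3.58 TPM. Its log2 difference fell from 0.62 to 0.16 without that library. The decarboxylase *Ddc* depended less on it. *Ddc* ran from 2.06 to 51.3 TPM (median 18.0) in WT and from 13.5 to 153 (median 26.3) in *Brd1*+/- mice, a log2 difference of 1.41 ± 0.63 (adjusted *p* = 0.540), and 1.10 (adjusted *p* = 0.829) without replicate 7. *Maoa* differed by 0.21 and *Maob* by 0.08, and by 0.17 and 0.06 without it. The 6 oligodendrocyte genes, none of them called, had a median log2 difference of 1.54 in this comparison against 0.03 for all genes and sums of 547 to 9591 TPM in WT and 1981 to 14476 TPM in *Brd1*+/- mice. Their part in the result was not tested.

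Under IMN no member differed between the genotypes at an unadjusted *p* under 0.05, and 0.017% of genes were called, but the intervals of *Th*, *Ddc* and *Slc6a3* were wide. Median *Th* was 10.0 TPM in WT and 5.59 in *Brd1*+/- mice, within ranges of 0.538 to 35.7 and 0 to 26.2 TPM. The log2 difference was -0.63, with a 95% interval of -2.79 to 1.52. *Ddc* had medians of 29.5 and 24.3 TPM, and *Slc6a3* of 0.344 and 0.196 TPM. *Maoa* differed by -0.08 (interval -0.57 to 0.40) and *Maob* by 0.04 (interval -0.18 to 0.25) on the log2 scale.

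Under FLX the synthesis gene *Th* and the oxidase *Maoa* had log2 differences below 0 in *Brd1*+/- mice at an unadjusted *p* under 0.05, and neither passed the test. Of all genes 1.54% were called, and 16.6% had such an unadjusted *p*. *Th* ran from 0 to 35.9 TPM (median 13.9) in WT FLX mice and from 0 to 7.37 (median 1.24) in *Brd1*+/- FLX mice. Of 8 WT values, 6 lay above the highest *Brd1*+/- value, yet the lowest WT value was a listed 0. The log2 difference was -2.55 ± 1.12 (unadjusted *p* = 0.0370, adjusted *p* = 0.263). *Maoa* had a mean of 26.1 ± 5.17 TPM in WT and 20.1 ± 5.26 in *Brd1*+/- mice (SD, n = 8), a log2 difference of -0.40 ± 0.17 (adjusted *p* = 0.238). Hypothalamus genes, none of them called, stood beside this. The median log2 difference of the 5 that could be tested was -2.21, against -0.06 for all genes, and the 8 summed to 10.2 to 4617 TPM in WT FLX and 7.72 to 110 TPM in *Brd1*+/- FLX libraries. Striatal genes had a median difference of 0.75, above 0 in 6 of 6. Amygdala genes had a median of 0.83 but were mixed, above 0 in 6 of 10 and running from -1.56 to 1.82. Oligodendrocyte genes had a median of -0.57, above 0 in 0 of 6. The part of these lists in the result was not tested.

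In WT mice IMN gave no called gene at all, 0% of those tested, with 1084 genes at an unadjusted *p* under 0.05 in limma. *Slc6a3* was among these, at 0.112 to 0.567 TPM (median 0.344) after IMN against 0 to 0.316 TPM (median 0.156) after vehicle, a log2 difference of 0.81 ± 0.38 (adjusted *p* = 0.970) at the lowest levels of any member. *Th* differed by 1.06 ± 0.82, *Ddc* by 0.49 ± 0.78 and *Maob* by -0.05 ± 0.19 on the log2 scale. The 5 tested hypothalamus genes had a median difference of 1.38 and the 6 oligodendrocyte genes of 0.92, against -0.0024 for all genes, with none called. Their part was not tested.

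In WT mice given FLX, 5 of 6 log2 differences from vehicle were above 0, 3 of them at an unadjusted *p* under 0.05, and none passed the test. Of all genes 0.335% were called, and 16.8% had such an unadjusted *p*. *Slc18a2* ran from 3.01 to 12.3 TPM (median 6.17) after FLX and from 2.52 to 6.97 (median 3.61) after vehicle, a log2 difference of 0.72 ± 0.28 (adjusted *p* = 0.212). *Ddc* ran from 15.4 to 81.4 TPM (median 32.6) against 2.06 to 51.3 (median 18.0), a difference of 1.44 ± 0.59 (adjusted *p* = 0.233). *Maoa* ran from 20.1 to 32.9 TPM (median 26.4) against 11.97 to 28.3 (median 19.2), a difference of 0.44 ± 0.16 (adjusted *p* = 0.173). The hypothalamus genes had a median log2 difference of 2.42 over 6 tested genes, against 0.05 for all genes, the 6 oligodendrocyte genes of 1.21 and the 6 striatal genes of -0.51, with none called. Their part was not tested.

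In *Brd1*+/- mice the drugs were compared with a vehicle group that holds the dopamine neuron library. IMN gave 0 of 6 members where 0.776% of genes were called, with none at an unadjusted *p* under 0.05. *Th* differed by -0.55 from vehicle with replicate 7 and by 0.0045 without it, and *Slc6a3* by -0.36 with it and 0.81 without it. *Ddc* differed by -0.97 and -0.67 and *Slc18a2* by -0.69 and -0.23 in the same way. The 6 oligodendrocyte genes had a median difference of -1.03, and their part was not tested. FLX gave 0 of 6 where 0.731% were called. *Th* was at 0 to 7.37 TPM (median 1.24) there, against 0.631 to 101 (median 7.19), a log2 difference of -2.33 ± 0.95 (unadjusted *p* = 0.0263, adjusted *p* = 0.608), and -1.78 (adjusted *p* = 0.883) without replicate 7. The 5 tested hypothalamus genes had a median difference of -1.40 and the 6 oligodendrocyte genes of -0.84, against -0.04 for all genes, and their part was not tested. *Slc18a2* differed by -0.43, and by 0.03 without that library, *Ddc* by -0.49 and -0.19, and *Slc6a3* by -0.61 and 0.56. *Maob*, at 20.3 to 79.7 TPM after FLX and 21.2 to 36.5 after vehicle, differed by 0.10, and by -0.12 without the 2 libraries highest in *Ttr*.

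The change with drug was also compared between genotypes. For IMN, 0 of 6 members were called, none at an unadjusted *p* under 0.05, against 0.536% of all genes. With and without replicate 7 the interaction was -1.61 and -1.06 for *Th*, -1.47 and -1.16 for *Ddc*, -1.03 and -0.57 for *Slc18a2*, -1.17 and 0.0057 for *Slc6a3*, and -0.29 and -0.25 for *Maoa*. Hypothalamus genes had a median of -1.20 and oligodendrocyte genes of -1.95, and their part was not tested. For FLX, 0 of 6 were called against 1.71%, with *Th*, *Ddc* and *Maoa* at an unadjusted *p* under 0.05, as were 16.8% of all genes. The interaction was -3.52 ± 1.47 on the log2 scale for *Th* (adjusted *p* = 0.214), -1.93 ± 0.88 for *Ddc* (adjusted *p* = 0.259) and -0.61 ± 0.25 for *Maoa* (adjusted *p* = 0.208), the last with an interval of -1.12 to -0.10. *Maoa* medians were 19.2 and 26.4 TPM in WT vehicle and WT FLX mice and 23.9 and 19.7 in *Brd1*+/- vehicle and FLX mice. Without replicate 7 the interaction was -2.97 for *Th*, -1.62 for *Ddc* and -0.57 for *Maoa*, and that of *Slc18a2* went from -1.15 to -0.69 and of *Slc6a3* from -0.74 to 0.43. The 7 tested hypothalamus genes had a median of -2.95 and the 6 oligodendrocyte genes of -2.10, none of them above 0, against -0.10 for all genes. Their part was not tested.

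Group medians of the members can be put in order, but the ranges of neighbouring groups overlapped throughout. By median, *Th* ran from *Brd1*+/- FLX (1.24 TPM) over WT vehicle (4.01), *Brd1*+/- IMN (5.59), *Brd1*+/- vehicle (7.19) and WT IMN (10.0) to WT FLX (13.9). *Maoa* ran from 19.2 TPM in WT vehicle to 26.4 in WT FLX mice. *Ddc* ran from 18.0 to 32.6 TPM between the same groups, and *Slc18a2* from 3.10 TPM in *Brd1*+/- IMN to 6.17 in WT FLX mice. *Maob* spanned only 21.4 to 25.3 TPM by median.

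Of the other genes of the amine pathway, 1 of 13 was called in 1 comparison. In that comparison 1.71% of all genes tested were called. *Pdxk*, pyridoxal kinase, which makes the vitamin B6 cofactor that the decarboxylase needs, had an interaction of genotype and FLX of -0.63 ± 0.17 on the log2 scale (adjusted *p* = 0.0442). It ran from 91.9 to 141.8 TPM (median 111) in WT vehicle and 98.0 to 187 (median 154) in WT FLX mice, and from 112 to 147 (median 133.1) and 90.4 to 146 (median 106) in the same *Brd1*+/- groups. That call was kept in 1 of 10 alternative fits, whose adjusted *p* ran from 0.0417 to 0.0896, and was 0.0718 without *Brd1*+/- vehicle replicate 7. Of the 14 dopamine neuron genes, 1 was called in 2 comparisons, where 0.335% and 1.71% of all genes tested were called. *Sncg*, a synuclein of many neuron types, was 1.67 to 18.9 TPM (median 4.73) in WT vehicle and 9.75 to 69.7 (median 31.0) in WT FLX mice, a log2 difference of 2.27 ± 0.46 (adjusted *p* = 0.0446), and had an interaction of -2.71 ± 0.71 (adjusted *p* = 0.0423). The first call was kept in 4 of 9 alternatives (adjusted *p* 0.0122 to 0.140) and the second in 6 of 10 (0.0216 to 0.186, and 0.0771 without *Brd1*+/- vehicle replicate 7). None of the 5 dopamine receptor genes and none of the 10 genes of other amine neurons was called in any comparison. Among the cofactor enzymes, *Gch1*, which starts tetrahydrobiopterin synthesis for tyrosine hydroxylase, measured 4.27 TPM in the dopamine neuron library, the second highest of 48.

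Outside that library, most of the highest *Th* values came with high levels of hypothalamus genes. After *Brd1*+/- vehicle replicate 7, the highest *Th* values were 35.9 TPM in WT FLX replicate 3, 35.7 in WT IMN replicate 4 and 28.9 in WT FLX replicate 1. These libraries held 3968, 10478 and 1957 TPM of the 8 hypothalamus genes, which include the lateral hypothalamic peptides *Hcrt* and *Pmch* and the magnocellular peptides *Avp* and *Oxt*. The next, WT FLX replicate 7 with 26.98 TPM of *Th*, held 123 TPM of these genes, rank 13 of 48. *Brd1*+/- vehicle replicate 7 itself held 225 TPM of them, rank 10. In the 6 libraries with the most of these genes, *Th* was 16.4 to 35.9 TPM, and its median in the other 42 was 4.86 TPM. *Slc6a3* stayed at 0 to 4.30 TPM in those 6, against 149 TPM in *Brd1*+/- vehicle replicate 7. Across the 48 libraries the log2 level of *Th* correlated with the mean log2 level of the hypothalamus list with Spearman's rho 0.66 and Pearson's r 0.62 (0.66 without the 2 libraries farthest in *Th*). Within the 16 vehicle and the 32 drug libraries rho was 0.59 and 0.71. The link was not particular to *Th*. Over all 48 libraries, rho with the same list was 0.71 for *Ddc*, 0.72 for *Slc18a2*, 0.46 for *Slc6a3* and 0.11 for *Maob*. These are descriptions over libraries that differ in the tissue they hold.

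*Maoa* followed the same genes more closely, and striatal genes in reverse. Its rho with the hypothalamus list was 0.86 (r = 0.77, and 0.78 without the 2 farthest), and with the striatal list -0.64 (r = -0.73, and -0.68). The 7 libraries with the most striatal transcript, 4804 to 7290 TPM over the 6 genes, were the 7 lowest in *Maoa*, at 11.5 to 15.1 TPM, and the other 41 ran from 15.8 to 32.95 TPM. Of these 7, 2 were WT IMN, 2 *Brd1*+/- IMN and 1 each WT vehicle, *Brd1*+/- vehicle and *Brd1*+/- FLX libraries, and none was from WT FLX mice, the group with the highest *Maoa*. *Ddc* in the 7 was 2.69 to 13.5 TPM, against a median of 29.3 TPM in the others. *Slc6a3* in the 7 was at most 0.139 TPM. The striatum receives dense dopamine input, but the cell bodies of those fibres lie elsewhere.

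*Maob* was highest in the libraries richest in choroid plexus genes. The 4 libraries with the most of the 5 choroid plexus genes, 8694 to 29373 TPM, were the 4 highest in *Maob*, at 79.7 TPM in *Brd1*+/- FLX replicate 8, 55.9 in WT vehicle replicate 1, 36.5 in *Brd1*+/- vehicle replicate 3 and 35.7 in WT FLX replicate 2. The other 44 ran from 18.3 to 29.96 TPM. The same 4 belong to 4 different groups. *Hdc* was also highest in WT vehicle replicate 1 (16.5 TPM) and *Brd1*+/- FLX replicate 8 (15.9 TPM). Over all 48 libraries, however, rho between *Maob* and the choroid plexus list was 0.40 (r = 0.73, and 0.55 without the 2 farthest), and it was 0.13 within the 16 vehicle and 0.56 within the 32 drug libraries. With the dopamine neuron list rho was 0.44 over all 48 (0.68 vehicle, 0.34 drug). With the astrocyte list it was 0.37 (0.53 vehicle, 0.25 drug). The link over all libraries was thus not particular to choroid plexus genes. Without the 2 libraries highest in *Ttr*, the transthyretin gene of choroid plexus, the *Maob* difference between FLX and vehicle changed sign in WT mice (from -0.08 to 0.10) and in *Brd1*+/- mice (from 0.10 to -0.12), and no *Maob* value passed the test either way.

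**Figure D4:**
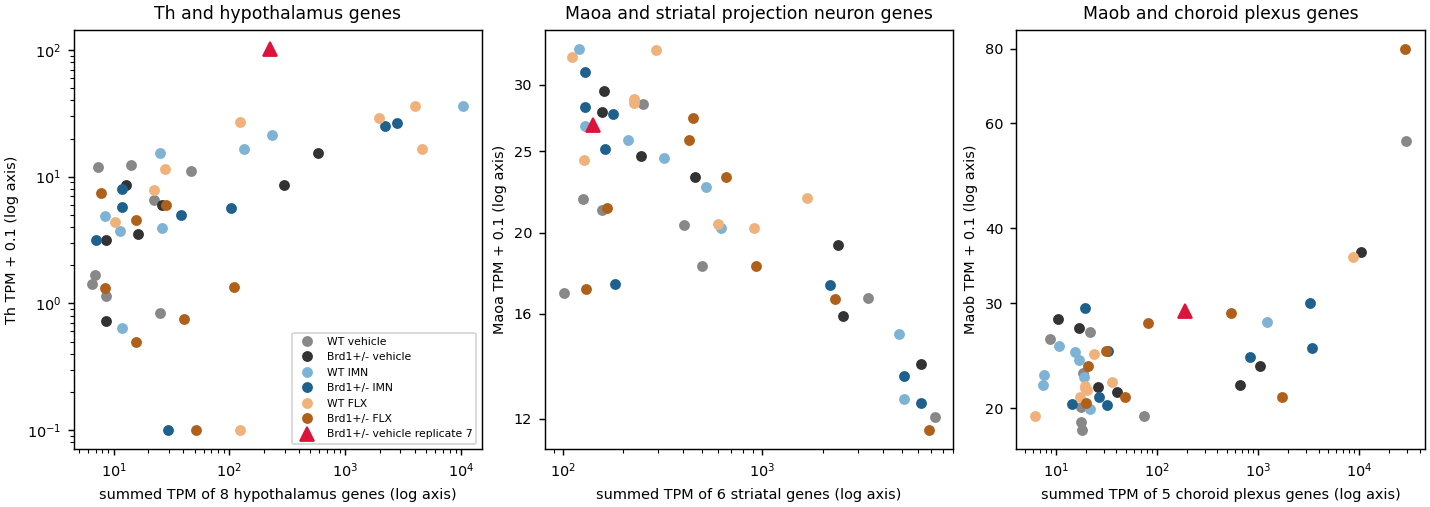
*Th* beside the summed level of 8 hypothalamus genes, *Maoa* beside 6 genes of striatal projection neurons and *Maob* beside 5 choroid plexus genes, both axes logarithmic, 1 point per library and colours for groups. The 6 libraries farthest right in the first panel hold 16.4 to 35.9 TPM of *Th*, below *Brd1*+/- vehicle replicate 7 (triangle), *Maoa* falls to 11.5 TPM at the right, and *Maob* exceeds 29.96 TPM only in the 4 libraries at the far right.

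The members also moved with each other to different degrees. Over 48 libraries the highest rho among the 15 pairs was 0.77, between *Ddc* and *Slc18a2* (r = 0.72, and 0.74 without the 2 farthest), followed by 0.73 between *Ddc* and *Maoa* and 0.68 between *Slc18a2* and *Maoa*. *Th* had 0.64 with *Slc18a2* and 0.44 with *Ddc*. Leaving out the dopamine neuron library left these at 0.76, 0.73, 0.68, 0.62 and 0.40. *Maob* stood aside, with rho between 0.0047 and 0.31 with the other 5.

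The genes most like each member over the 48 libraries, by Spearman's rho, held no other member and no gene of the amine lists. For *Th* they were *Flywch2*, *Klhl1*, *Pld6*, *Dhrs13* and *Ass1*, with rho of 0.86 to 0.80. For *Ddc* they were *Rpl4*, *Gosr1*, *M6pr*, *Peg10* and *Gabrg1* (0.83 to 0.81), and for *Slc18a2* *Zfhx3*, *Fundc1*, *Dgkk*, *Lhfpl5* and *Cep120* (0.82 to 0.80). *Maoa* had the closest, *Nap1l4*, *Tceal1*, *Tmem106c*, *2310022B05Rik* and *Arl10* (0.94 to 0.91). Of 13833 genes compared, 5 had a rho over 0.8 with *Th*, 7 with *Ddc*, 6 with *Slc18a2* and 0 with *Slc6a3* and *Maob*, against 3.2% of them with *Maoa*, which also had 1.92% under -0.8. *Maoa* was thus over 0.8 with far more genes than any other member. For *Slc6a3* the closest were *Brix1*, *Psmb7*, *Eif2s2*, *Zcchc17* and *Tspan18*, at 0.70 to 0.64, on levels mostly under 1 TPM. For *Maob* they were *Fbxo36*, *Arl6ip1*, *Sord*, *Cab39l* and *Dstn* (0.71 to 0.63).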

How the data were processed

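Amygdala punches of 48 female mice were profiled by RNA sequencing. The authors trimmed and checked reads, aligned them to GRCm38 with HISAT2 2.1.0 and quantified genes with StringTie 1.3.4, per the labels and the study's methods. The deposited values are TPM per gene and library, scaled to a common total, so a rise in some transcripts lowers the others and the read number is not kept. Column sums were 999524 to 999772 TPM. Groups, doses and replicate numbers came from the labels, and 0 columns were left without a sample. The series' design text names other brain regions than the labels, which were followed.

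Gene IDs were matched to GENCODE M21, and 52489 of 52636 were found there. The members and lists were chosen with earlier results of these data known. Named genes were the 6 members, any listed gene that was called, the 12 leading genes of the dopamine neuron library and the 5 genes most like each member among protein-coding genes with a mean of at least 1 TPM. *Vezf1* and *Ggcx* belong to those 12. A few listed genes are counted in their lists but not reported here by name.

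Genes that reached 0.1 TPM in 8 or more libraries of a fit were tested in limma 3.58.1 (R 4.3.3; eBayes with trend, two-sided) on log2(TPM + 0.1), on the groups compared. limma replaced the authors' edgeR, since TPM is not a count, and differences on this scale understate changes of low genes. The code was tested on simulated data. Replicates are separate mice. Alternatives were pseudocounts of 0.01 and 1, no filter or at least 1 TPM, median-ratio scaling, no trend, 1 fit of all 48 libraries, a replicate block, a term for the sample-code range, and leaving out the dopamine neuron library. The sample-code term was used only between genotypes, since vehicle and drug libraries had separate code ranges. Among drug libraries it pooled the highest codes, all of WT mice, with lower codes of *Brd1*+/- mice, so it did not separate those WT libraries. Leaving out the 2 libraries highest in *Ttr* was added after the data were seen. The test meant for members below the filter was not needed.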

Additional observations from a re-analysis of the deposited data

Results flagged for a closer look

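In 8 of 36 combinations of a member and a group of 8, the highest or lowest library lay far from the rest of its group, by its gap to the nearest library over the whole range on log2(TPM + 0.1). Of these, *Slc6a3* (149 TPM, next 0.440) and *Slc18a2* (53.9 TPM, next 8.9998) in *Brd1*+/- vehicle replicate 7 are values by which that library was chosen, so they are a description and no test. The other 6 passed Dixon's critical value. Chance gives this in about 1 of 20 groups where values are normally distributed, which listed zeros are not. *Maob* was far above its group in WT vehicle replicate 1 (55.9 TPM, next 26.7), WT FLX replicate 2 (35.7 TPM, next 24.5) and *Brd1*+/- FLX replicate 8 (79.7 TPM, next 28.7). The remaining 3 were values listed at 0, for *Th* in *Brd1*+/- IMN replicate 3 (0 TPM, next 3.07) and WT FLX replicate 6 (0 TPM, next 4.32) and for *Slc6a3* in *Brd1*+/- FLX replicate 2 (0 TPM, next 0.185). Their gaps depend on the 0.1 added to each value.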

How the results depend on the processing

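The count of members called was 0 in all 87 alternative fits, with a lowest adjusted *p* of 0.122, and 497 of 513 alternative differences of members kept their direction. The 16 that changed sign lay near 0 or rested on 1 or 2 libraries. Without *Brd1*+/- vehicle replicate 7, *Slc6a3* went to -0.00083 (*Brd1*+/- against WT vehicle), 0.81 and 0.56 (*Brd1*+/- IMN and FLX against vehicle), 0.0057 and 0.43 (interactions with IMN and FLX), *Th* to 0.0045 (*Brd1*+/- IMN against vehicle) and *Slc18a2* to 0.033 (*Brd1*+/- FLX against vehicle). Without the 2 libraries highest in *Ttr*, *Maob* went to 0.13 and 0.10 (WT IMN and FLX against vehicle), -0.12 (*Brd1*+/- FLX against vehicle) and -0.22 (interaction with FLX), and *Slc6a3* to -0.032 (WT FLX against vehicle). *Slc6a3* between genotypes under IMN went to -0.38 with a pseudocount of 0.01, -0.021 with median-ratio scaling and -0.19 with a term for the sample-code range, and in WT FLX against vehicle to -0.11 with a pseudocount of 0.01. The cause was not tested.

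Counts over all genes moved more, in the order of comparisons of the report, from 172 to 24 to 349, 4 to 4 to 5, 364 to 46 to 398, 0 to 0, 79 to 0 to 956, 188 to 23 to 296, 178 to 24 to 275, 143 to 15 to 212 and 455 to 259 to 752, as main, lowest and highest. The 956, 349 and 752 came without the 2 *Ttr* libraries. With the replicate block the first 7 counts were 63, 4, 46, 0, 0, 87 and 81 and the last, the FLX interaction, was 330, and the members called stayed at 0. Replicate numbers did not pair the libraries, since 0 to 4 of 8 same-numbered pairs correlated over 0.1 in any comparison. Under median-ratio scaling the share of calls that were higher went from 10.7% to 21.8% between genotypes under FLX and from 10.3% to 22.3% in the FLX interaction, and from 2 of 4 to 1 of 4 calls between genotypes under IMN. Leaving out each library in turn was not run, because no member was called. TPM gives no depth, so low levels such as those of *Slc6a3* carry an unknown counting error.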
